A study of Saccharomyces cerevisiae with 12 samples.

Results

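Transcript levels of budding yeast in the later hours of nitrogen starvation were compared with those soon after its onset. The 4 arrays used, of 12 in the series, hold RNA taken 1 and 2 hr after ammonium was removed (the early pair) and 4 and 8 hr after (the late pair), as given by their labels. The cells were FY4, a haploid of mating type a that derives from S288C and needs no added amino acids. They grew as filter cultures on agarose plates of YNB minimal medium with glucose, and the filters were then moved to plates of the same medium without ammonium. All 4 groups used here, the carbon starvation arrays at the same hours included, were of this 1 strain and were read against the same kind of reference, RNA of the exponential culture just before the switch. Each time point is 1 array, so the 2 arrays of a pair are 2 times rather than repeats of 1 time, and the labels name no separate cultures.

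Yeast meets the loss of ammonium on several fronts. Nitrogen catabolite repression, which keeps genes for poor nitrogen sources silent while a good source is present, is relieved, and autophagy and vacuolar proteases free amino acids from existing protein. Growth is cut back at the same time through TOR and protein kinase A signalling, and the ribosome, whose parts take up a large share of transcription, is among the main savings. Its production needs RNA polymerases I and III for ribosomal RNA, transfer RNA and 5S RNA, a large set of assembly factors that process and fold the precursor RNA in the nucleolus, and the ribosomal proteins themselves.

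Each gene's value is the log2 ratio of the red channel (Cy5, starved cells) to the green channel (Cy3, cells before the switch), with each array centred on its median. A value of 0 is therefore the median spot of an array, which stands here for the level at the start. Before centring, that median lay at 0.01 to 0.12 on the 4 arrays. The log2 ratio of red to green totals, another choice of 0, lay at -0.42 to 0.14. A difference between late and early arrays does not depend on a constant reference. Equal amounts of poly(A)+ RNA went onto both channels, so the values are relative to the other transcripts and not amounts per cell. The red signal stood well above background on 90.7 to 93.4% of spots on these 4 arrays. The SD of a single spot's log2 ratio, taken from duplicate spots, was 0.13 to 0.19. Across genes, r was 0.98 between the arrays at 1 and 2 hr, 0.933 between those at 4 and 8 hr and 0.943 between those at 2 and 4 hr. The nitrogen array at 10 min (r of 0.24 to 0.31 with the 4) and the carbon array at 60 min (0.33 to 0.43, with 42.7% of spots above background) stood apart from the rest. All 7 a-specific genes were detected on the 4 arrays, as were STE3 and SAG1 of the 4 alpha-specific genes, whereas neither gene for the alpha pheromone was detected on any of them. The transporter and regulator genes GAP1, MEP2, DAL5, DAL80 and PUT4 and the urea amidolyase gene DUR1,2, which are released when nitrogen is short, all lay above the start on every one of the 4 arrays, at 0.31 to 3.59, with red spots of GAP1 saturated at 1, 2 and 4 hr and of DAL5 at 1 hr.

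Of 5680 genes with a value on all 4 arrays, 330 (5.81%) passed an adjusted p under 0.05 in limma, with Benjamini-Hochberg adjustment over all of them. Of these, 307 (5.4% of genes tested) were higher at 4-8 hr than at 1-2 hr and 23 (0.405%) were lower, and the median difference over all genes was 0.03. With the 2 channels of each array scaled to equal totals, which moved that median by -0.32, 401 genes were called higher and 354 lower. The red channel alone (a shift of -0.12) gave 380 and 166. No gene was called with a trended variance prior, with loess normalization, with all 12 arrays in the fit or with a slope over log2 time, although 1739, 1378, 415 and 2108 genes had an unadjusted p under 0.05, against 1582 (27.9%) in the fit reported here. With loess the median size of the 330 changes was 1.14 in place of 1.97, and the fold of 210 of them moved by over 1.5 times. The count was 122 without the 1 hr array, 129 without the 2 hr array and 1814 (1089 higher, 725 lower) without the 4 hr array. An exact permutation test of a single value cannot go below p = 0.333 with 2 arrays against 2.

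Genes were then sorted by the size of their values alone, with a limit of 1 on the log2 scale for the distance from the start and for the change. In all, 484 genes (8.52%) lay at least 1 below the start at 1-2 hr and came up by at least 1, here called transient falls. A further 149 genes (2.62%) reached at least 1 above the start at 4-8 hr after a gain of at least 1, called late rises. With this centring the opposite patterns were rarer, with 60 transient rises (1.06%) and 25 late falls (0.44%). The limma test called 266, 34, 18 and 3 genes of these sets, in that order. The sets were cut from the same values, so their size is a description. Equal totals of the 2 channels, the scaling that the study describes, gave other sizes. Transient falls then numbered 334, late rises 81, transient rises 241 and late falls 54, so that transient rises outnumbered late rises. With the limits at 2 and the median centring, the transient falls numbered 147, the late rises 33, the transient rises 2 and the late falls 1. Just inside and outside the limits lay NOP1 (a change of 1.0011) and RPL31A (0.9986) for the transient falls, YRF1-4 (1.0074) and YNL134C (0.9969) for the late rises, DIF1 (-1.0041) and MUP3 (-0.9983) for the transient rises, and YOL014W (-1.0034) and CST13 (-0.9955) for the late falls.

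**Figure D1:**
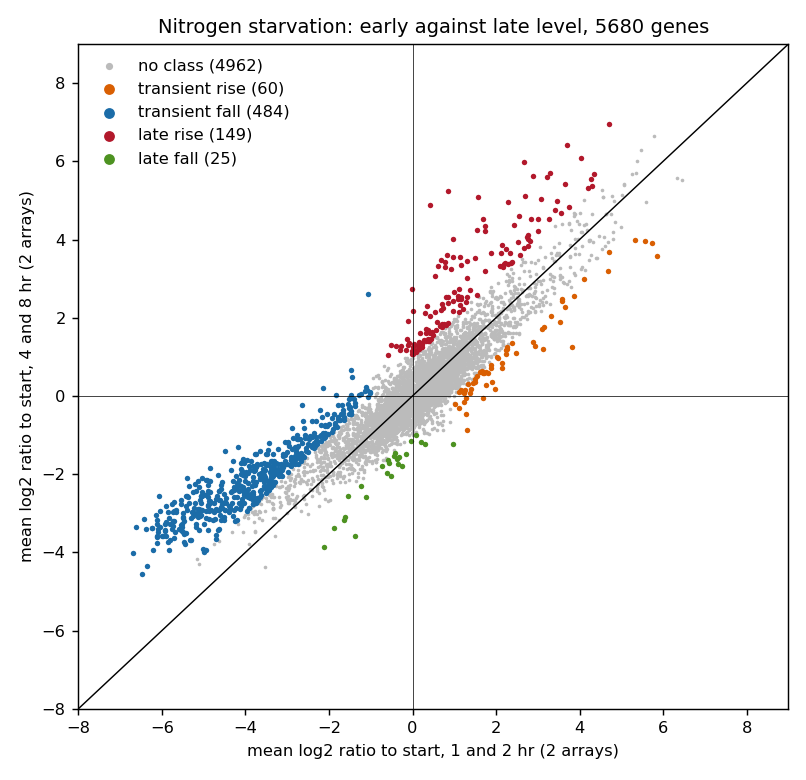
Each point is 1 of 5680 genes, with the mean log2 ratio to the start of the arrays at 1 and 2 hr on the horizontal axis and that of the arrays at 4 and 8 hr on the vertical axis. Colours give the 4 sets cut by size; the 484 transient falls lie above the diagonal at the lower left, and most of them stay below 0 at 4-8 hr.

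The return was partial for most transient falls. Their median went from -3.57 and -4.03 at 1 and 2 hr to -2.58 at 4 hr and -1.79 at 8 hr, so that the median gene kept 55.2% of its log2 distance from the start. At 4-8 hr 64 of the 484 were within 1 of the start and 13 had passed it. The 60 transient rises had medians of 2.07, 1.94, 1.01 and 0.43 at the 4 times and kept 37.6% of their distance, with 34 within 1 of the start and 7 past it. In the 149 late rises the median stood at 0.96, 0.91, 2.25 and 2.93, and in the 25 late falls at -0.48, -0.52, -1.34 and -2.11. The 10 and 30 min arrays were not used to form these sets, and there the transient falls had medians of -0.31 and -1.17 and the late rises of -0.15 and 0.49.

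The transient falls were led by genes for making ribosomes. Of 100 ribosome assembly factors, 86 were called higher at 4-8 hr and none lower, against 5.4% of all genes called higher, and all 100 had a positive change (99 with equal totals), with a median of 2.33 or 5.02-fold. Their median stood 36.3-fold below the start at 1-2 hr and 6.89-fold below it at 4-8 hr. Both late arrays exceeded both early ones for all 100, whereas the pairs did not overlap, in either direction, for 66.7% of all genes. The median stayed between 1.32 and 2.58 under the 18 alternative settings. The count of calls was 0 under the settings that called no gene at all.

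RPF1, a factor for assembly of the large subunit, had the largest change among them. It stood at -6.20 and -5.94 at 1 and 2 hr, then at -3.09 and -2.0 at 4 and 8 hr, and so remained well below the start on every array. The change was 3.52 (SE 0.39, limma adjusted p = 0.0197), or 11.5-fold. RRS1, which helps bring 5S ribosomal RNA to the large subunit, stood at -5.37, -5.42, -2.64 and -1.55 at these times. That was a gain of 3.30 (SE 0.38, limma adjusted p = 0.0197), with the 8 hr array nearest to the start.

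PUF6, an RNA-binding protein of large subunit assembly that also holds back ASH1 translation, was lowest at 2 hr. Its values were -5.71, -6.39, -3.08 and -2.79, and nearly all of its gain of 3.12 (SE 0.28, limma adjusted p = 0.018) came before 4 hr. ENP2, of the small subunit processome, followed a like course from -5.66 and -6.15 to -3.26 and -2.35, with a change of 3.10. DBP7, a DEAD-box helicase for the large subunit, went from -5.62 and -5.09 to -2.78 and -1.83. EFM4, a methyltransferase that acts on translation elongation factor eEF1A, is in none of the ribosome lists but had similar values (-4.23, -4.76, -1.91 and -0.91), and its last array came within 1 of the start. For each of these 3 genes the pairs did not overlap (limma adjusted p = 0.02 for ENP2, 0.0227 for DBP7 and EFM4).

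Genes of each part of the assembly line were called. Among factors for the large subunit 30 of 34 were called higher (median change 2.61), among those for the small subunit 35 of 40 (median 2.25) and among RNA helicases 9 of 10 (median 2.22). The core box C/D and H/ACA snoRNP proteins, which guide modification of ribosomal RNA, had smaller changes, with 2 of 5 called and a median of 1.51. The methyltransferase NOP1 was the lowest of them, at -4.59, -5.41, -3.87 and -4.13, a change of 1.00 that did not pass the threshold (limma adjusted p = 0.133). RRP7, singled out after its values were seen, had the smallest change of the 100 at 0.17 (below 0 with equal totals), and its values ran from -1.54 to -1.25 on all 4 arrays. By the annotation printed on the array, 18 of 19 genes for processing of 20S pre-rRNA and all 14 for rRNA modification were transient falls.

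RNA polymerases I and III gave the same direction with smaller changes. Of 27 genes 16 were called higher (59.3%, against 5.4% of all genes) and none lower, and the median went from -3.34 to -1.55, a median change of 1.52. All 7 subunits particular to polymerase I and both subunits shared by I and III alone were called, as were 6 of the 10 genes of polymerase III and its factors. RPA34, a polymerase I subunit, stood at -4.73, -5.05, -2.53 and -2.30. It gained 2.47 (SE 0.20, limma adjusted p = 0.018), most of it between 2 and 4 hr. RET1, the second largest polymerase III subunit, went from -4.04 and -4.01 to -2.09 and -1.31, and RPC19, of both enzymes, from -4.37 and -4.07 to -2.16 and -1.95 (limma adjusted p = 0.0227 and 0.018). RPA190, the largest polymerase I subunit, stood at -5.04, -5.46, -3.59 and -2.55 (a change of 2.17, limma adjusted p = 0.0472). The polymerase I initiation factors differed among themselves. RRN11, of the core factor, stood at -5.17, -4.63, -2.76 and -2.81 and was called (a change of 2.12), whereas RRN5 and RRN10, of the upstream activating factor, had changes of -0.39 and -0.21 (limma adjusted p = 0.27 and 0.50). These 3 were named after their values were seen.

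Cytosolic ribosomal proteins had a positive median change as well, but their values differed within each pair of arrays. Of 133 genes 131 had a positive change (127 with equal totals, 125 in the red channel alone), with a median of 1.22 or 2.33-fold. By size 94 were transient falls, yet 1 was called (0.752%, against 5.4% of all genes called higher). That gene, RPL7B, had a red signal that was not above background on all 4 arrays. The list median went from -3.05 at 1 hr down to -4.14 at 2 hr, then to -3.00 at 4 hr and -1.76 at 8 hr, and both late arrays exceeded both early ones for 70 of the 133 (52.6%), where 66.7% of all genes had pairs that did not overlap in either direction. The median change of 1.22 ranged from 0.60 without the 8 hr array to 1.78 without the 4 hr array. RPS14B, of the small subunit, stood at -3.48, -3.53, -2.24 and -0.72, with a change of 2.03 (limma adjusted p = 0.093). RPL6A, of the large subunit, stood at -3.41, -4.91, -3.08 and -1.47, so that its 1 and 4 hr values were close. The near-identical copies RPL42A and RPL42B gave nearly the same values on each array (-0.75 and -0.87 at 8 hr), and their probes may not separate them. The green channel of these genes, which holds the reference, differed by a median of -0.30 between late and early arrays, and the red channel by 0.82. The 55 mitochondrial ribosomal proteins had no call in limma and a median change of -0.13, with 53 of them within 1 of the start at 4 hr. Of these genes 4 (7.27%) had an unadjusted p under 0.05, against 27.9% of all genes.

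**Figure D2:**
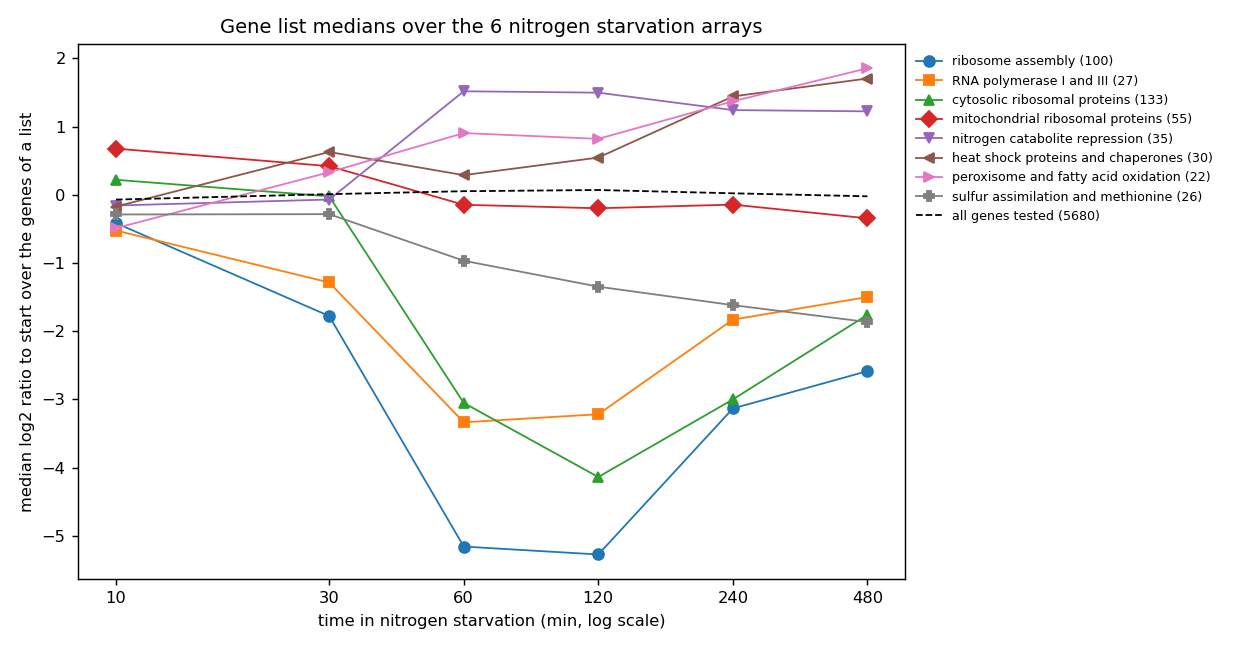
Points give the median log2 ratio to the start over the genes of a list on each of the 6 nitrogen starvation arrays, with time in min on a log scale and the number of genes in brackets. Assembly factors, polymerases and cytosolic ribosomal proteins had medians of -5.27, -3.22 and -4.14 at 120 min and of -2.58, -1.50 and -1.76 at 480 min, while all genes tested stayed near 0.

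The interval that held most of the gain was not the same in the ribosome lists. From 2 to 4 hr the assembly factors gained a median of 2.20, and from 4 to 8 hr 0.52, and the first of these steps was the larger for all 100. For polymerase genes it was the larger in 25 of 27, against 46.6% of all genes. Ribosomal proteins gained 1.18 and 1.10 in these steps after a median loss of 1.16 from 1 to 2 hr, and the first was the larger in 68 of 133 (51.1%). All 133 were higher at 8 hr than at 4 hr, as were 85 of the 100 assembly factors. These are differences between single arrays and were not tested.

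**Figure D3:**
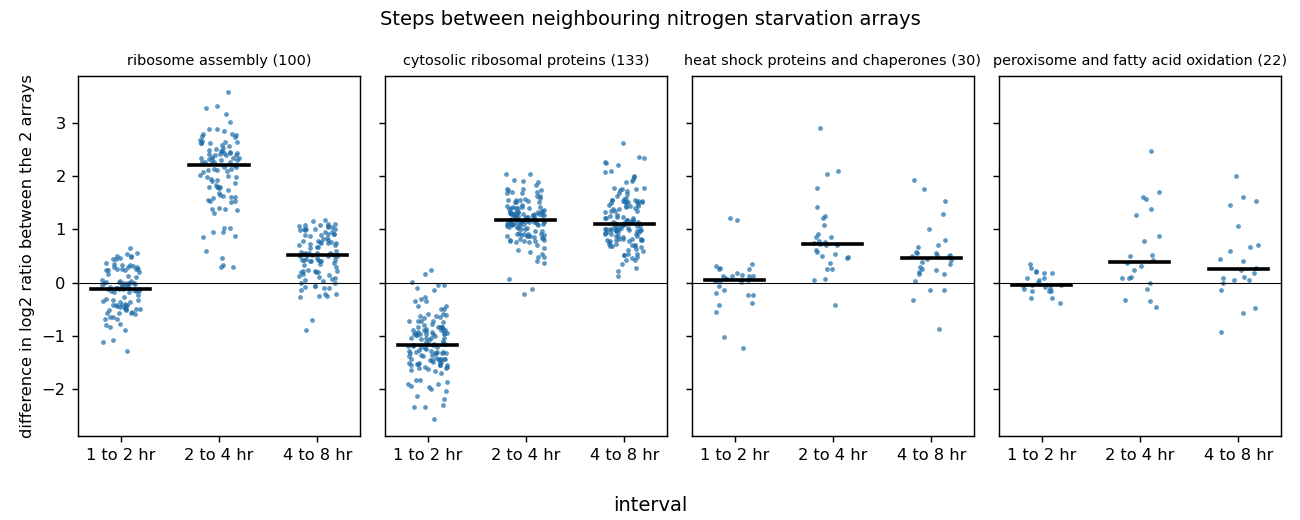
Points are genes of 4 lists, and the vertical axis gives the difference in log2 ratio between an array and the one before it, for the intervals from 1 to 2, 2 to 4 and 4 to 8 hr; bars are medians. Assembly factors gained a median of 2.20 between 2 and 4 hr and 0.52 after that, and ribosomal proteins lost 1.16 before gaining 1.18 and 1.10.

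The 3 ribosome lists held 207 of the 484 transient falls and 103 of the 307 genes called higher. Among the others were enzymes of nucleotide synthesis. URA1, the dihydroorotate dehydrogenase of pyrimidine synthesis, stood at -4.88, -5.21, -3.19 and -2.64, and URA7, a CTP synthase, at -6.06, -6.65, -4.46 and -4.26. Their changes were 2.13 and 1.99 (limma adjusted p = 0.0218 and 0.0227), and both stayed far below the start. Of 25 purine and pyrimidine genes these were the 2 called higher (8%, against 5.4% of all genes), with 1 called lower and a median change of 0.45. Among 66 amino acid biosynthesis genes 3 were called higher (4.55%, against 5.4% of all genes) and 1 lower. The calls included ILV5 of branched-chain synthesis (-4.62, -4.87, -3.30 and -2.65) and PRO1 of proline synthesis. The list median of 0.14 turned to -0.18 with equal totals and to -0.05 in the red channel alone. PHO90, a low-affinity phosphate transporter, went from -2.96 and -2.66 to -1.48 and -1.15 (limma adjusted p = 0.0273).

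A few transient falls came back to the start or beyond. These genes were chosen after their values were seen, as those with a late mean above the start or near it. NDE1, the external NADH dehydrogenase of mitochondria, stood at -1.23 and -1.06 and then at 0.13 and 0.14, and SDS23 at -1.52, -1.44, -0.06 and 0.13 (limma adjusted p = 0.0242 and 0.0197), and the call of NDE1 held in 8 of 18 settings. YPS3, an aspartic protease of the cell surface, went from -1.55 and -1.40 to 0.32 and 1.01, and SYF2, a splicing factor, from -2.31 and -1.96 to -0.20 and 0.61 (limma adjusted p = 0.0227 and 0.0252). The widest swing was that of NCA3, at -1.03, -1.11, 1.42 and 3.82, whose late values were too far apart for the threshold (limma adjusted p = 0.0662). GCN4, the activator of amino acid synthesis genes and one of those the study names, stood at -1.22, -1.33, -0.54 and 0.58, with a change of 1.30 (limma adjusted p = 0.123).

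Transient rises included genes for the use of poor nitrogen sources, above all of arginine. CAR2, the ornithine transaminase of arginine breakdown, stood at 5.65 and 5.79 at 1 and 2 hr, after -1.01 at 30 min, and at 4.32 and 3.48 at 4 and 8 hr. It fell by 1.82 (SE 0.31, limma adjusted p = 0.0426) and remained well above the start, and this call held in 9 of 18 alternative settings. CAR1, the arginase of the step before, stood at 5.86, 5.83, 4.18 and 2.97. Its change of -2.27 narrowly missed the threshold (limma adjusted p = 0.0505). ARG1, of arginine synthesis, was a transient rise by size as well, at 2.96, 2.81, 1.72 and 1.01. Its change of -1.52 did not pass the threshold either (limma adjusted p = 0.0505). Among transporters DAL5, for allantoate, stood at 3.56, 2.74, 1.91 and 1.61 (a saturated red spot at 1 hr) and UGA4, for GABA, at 4.46, 2.82, 1.95 and 2.60, and neither change passed the threshold (limma adjusted p = 0.0797 and 0.203).

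Other targets of nitrogen catabolite repression had smaller changes. Of 35 in all, 1 was called lower (2.86%, against 0.405% of all genes) and none higher, with a median change of -0.28 and medians of 1.50 at 1-2 hr and 1.07 at 4-8 hr. Of the 35, 18 had both late arrays below both early ones and 6 had them above, together 68.6% against 66.7% of all genes. Without the 8 hr array the median change was -0.19 and without the 4 hr array -0.43. The ammonium transporter MEP1 was among the 6 with both late arrays above both early ones. It stood at -0.55, -0.81, 0.33 and 1.22 (a change of 1.45, limma adjusted p = 0.0804). None of the 21 autophagy genes or the 11 vacuolar proteases and inhibitors was called by limma, and 7 and 4 had an unadjusted p under 0.05 (33.3% and 36.4%, against 27.9% of all genes). The autophagy genes with the largest changes went both ways, with 1.22 for CVT9 and -1.02 for ATG29. The vacuolar aminopeptidase LAP4 stood at 3.98, 3.58, 2.71 and 2.88 (limma adjusted p = 0.067).

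The other transient rises were of mixed function. HAB1 had the smallest adjusted p of them, at 5.58, 5.55, 4.02 and 3.90, with values close within each pair. It fell by 1.61 (SE 0.16, limma adjusted p = 0.018), back to about the 4.10 and 3.89 of the arrays at 10 and 30 min. DSD1, a D-serine dehydratase, stood at 2.87, 3.01, 1.62 and 0.93, and YHI9 at 3.54, 3.52, 2.15 and 1.63 (limma adjusted p = 0.0382 and 0.0264). YJL213W went from 1.51 and 1.10 to -0.43 and -1.30 and HIM1, which bears on mutagenesis, from 1.66 and 1.70 to 0.38 and -0.46, so that both ended below the start (limma adjusted p = 0.035 and 0.0492). The dicarboxylic amino acid permease DIP5 (3.24, 2.96, 1.94 and 1.49) and the oligopeptide transporter OPT1 (2.35, 2.42, 1.27 and 1.45) were called lower too, and were picked after their values were seen. ARO8 and QDR2 were the 2 genes called lower that belong to no set. ARO8, an aminotransferase for aromatic amino acids, went from 0.72 and 0.30 to -0.68 and -0.99.

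**Figure D4:**
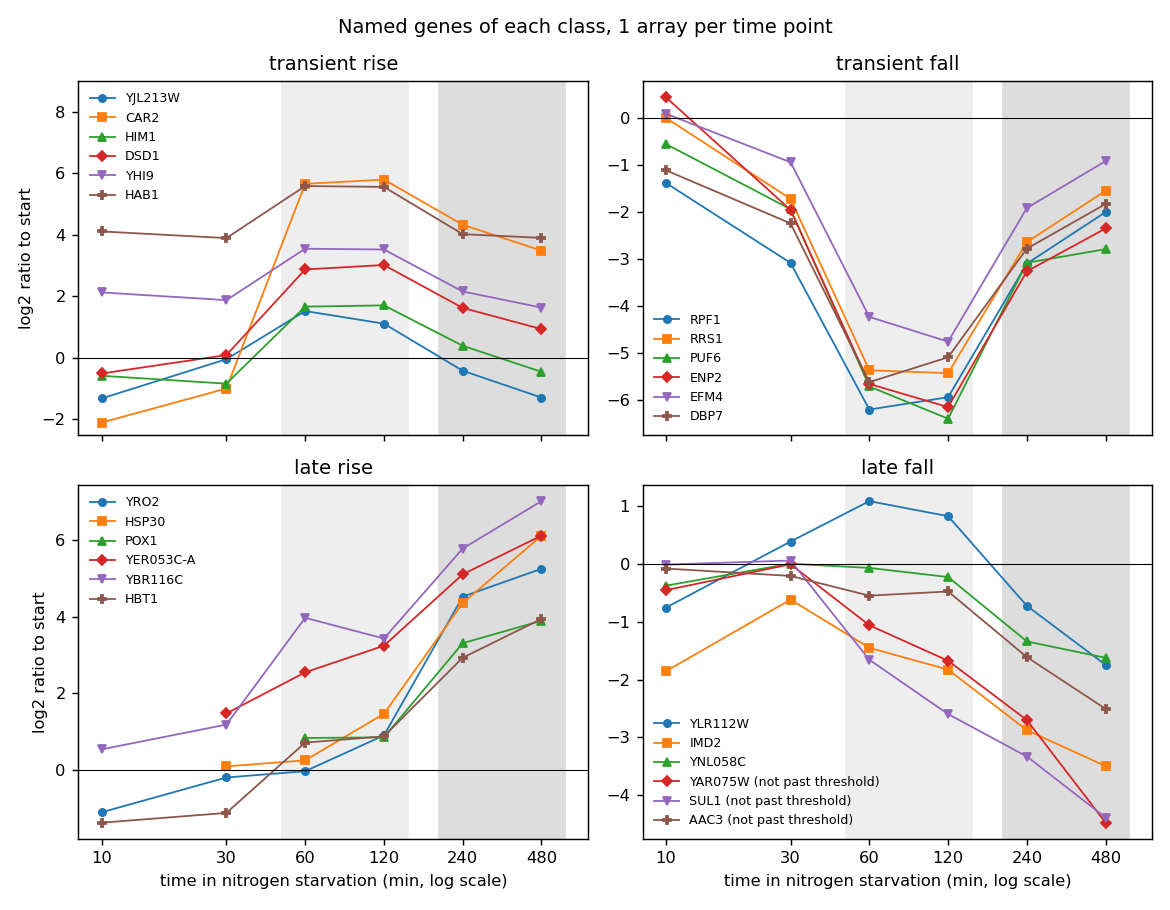
Lines join the log2 ratios to the start of 6 genes of each set on the nitrogen starvation arrays, with time in min on a log scale; shading marks the early and the late pair, and a missing point had no usable spot. RPF1 went from -6.20 at 60 min to -2.0 at 480 min, CAR2 from 5.65 to 3.48 and HSP30 from 0.24 to 6.12.

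Late rises were chosen for a gain after 2 hr, and their levels before it differed. Of the 149, 88 remained when both channels had to be above background on all 4 arrays. The rest had a dim channel on some array, so their levels against the start are less certain. YRO2, a membrane protein of the HSP30 family, stood at -0.04 and 0.89 at 1 and 2 hr, and at 4.53 and 5.25 at 4 and 8 hr. The gain of 4.46 (SE 0.41, limma adjusted p = 0.018), or 22.1-fold, was the largest of all called genes. HSP30, which curbs the plasma membrane proton pump under stress, stood at 0.24, 1.46, 4.36 and 6.12. It rose by 4.39 (SE 0.70, limma adjusted p = 0.035), with a step at each interval. HBT1, a protein of mating projections, stood at 0.71, 0.87, 2.93 and 3.94 (a change of 2.65, limma adjusted p = 0.0252).

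Genes of fatty acid breakdown were among the late rises. POX1, the acyl-CoA oxidase of the first step of peroxisomal beta-oxidation, stood at 0.83 and 0.84 and then at 3.31 and 3.89. It rose by 2.77 (SE 0.25, limma adjusted p = 0.018), or 6.80-fold. That change was 1.84 in the red channel alone and 0.78 with loess, and 3 of the 18 alternative settings gave no value for it. IDP3, the peroxisomal isocitrate dehydrogenase that supplies NADPH for unsaturated fatty acids, stood at 1.39, 1.58, 3.19 and 3.88 (limma adjusted p = 0.025). Its call held in 10 of the 16 settings that gave it a value, and its lowest change there was 0.80. FAA2, an acyl-CoA synthetase, and CAT2, a carnitine acetyltransferase, were the other two called, with changes of 1.44 and 1.64. Of the 22 genes of the list, 4 were called higher (18.2%, against 5.4% of all genes) and none lower. By size 9 were late rises, as were 2.62% of all genes, 5 had a negative change, and the median change was 0.53. POT1, the thiolase of the last step, stood at 3.27, 3.33, 4.89 and 6.50, and its late values were too far apart for the threshold (limma adjusted p = 0.075).

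All 30 heat shock proteins and chaperones had a positive change, against 28 with equal totals and 27 in the red channel alone. Of these genes 3 were called higher (10.0%, against 5.4% of all genes), and the median change was 0.91 or 1.88-fold. The pairs did not overlap for 28 (93.3%, against 66.7% of all genes). This list held both kinds of course. HSP30, SSA3 (-0.02, 0.01, 1.78 and 3.70) and HSP26 (4.11, 5.28, 6.19 and 7.72) were late rises, though SSA3, an Hsp70, and HSP26, a small heat shock protein, did not pass the threshold (limma adjusted p = 0.0804 and 0.109). YDJ1, an Hsp40 of the cytosol, was a transient fall, at -1.71, -1.66, -0.41 and -0.03 (limma adjusted p = 0.0252). The ribosome-bound Hsp70 SSB2 was another by size, at -3.53, -4.56, -2.47 and -2.61, with a near-identical copy SSB1.

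Other carbon and stress genes gave few calls. TKL2, a minor transketolase, stood at 2.82, 2.57, 4.77 and 5.46 (a change of 2.42, limma adjusted p = 0.0197). YBR116C, a dubious reading frame that overlaps it, had a change of 2.70, and the signals of the pair cannot be told apart here. GPX1, a peroxidase, stood at 2.50, 2.36, 4.14 and 4.58 (limma adjusted p = 0.0197). The call of GPX1 held in 10 of the 16 settings that gave it a value. It was the 1 called of 22 oxidative stress genes (4.55%, against 5.4% of all genes called higher), of which 3 were late rises by size and 15 had a positive change. Of 16 genes of gluconeogenesis and the glyoxylate cycle limma called none, and 13 had a positive change. An unadjusted p under 0.05 was met by 7 (43.8%), against 27.9% of all genes. SFC1, a mitochondrial succinate-fumarate carrier, stood at 1.16, 0.80, 2.89 and 5.11 and FBP1, the fructose bisphosphatase, at 0.76, 0.77, 2.07 and 4.50. Their 8 hr arrays were far above their 4 hr arrays (limma adjusted p = 0.0878 and 0.13), and the list median of 0.58 was 0.40 without the 8 hr array and 0.87 without the 4 hr array.

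Meiosis genes were measured in these haploid cells as well. MEK1, a kinase of meiotic recombination, stood at 1.08, 0.77, 3.35 and 3.15 (a change of 2.33, limma adjusted p = 0.018), and SPO69, the meiotic cohesin now called REC8, at 0.71, 0.14, 1.79 and 2.30. The change of MEK1 was 0.79 in the red channel alone and 0.02 with loess, that of SPO69 was 0.21 with loess, and their calls held in 10 and 6 of the 15 settings that gave them a value. They were the 2 called of 22 genes (9.09%, against 5.4% of all genes called higher), and the list median of 0.27 turned to -0.05 with equal totals. IME1, the master regulator of meiosis, was not above background in the red channel on any of the 4 arrays. Single calls came from ERG3 of ergosterol synthesis (-0.86, -0.19, 1.06 and 1.55), MDH1 of the TCA cycle (0.38, 0.27, 1.37 and 1.42) and THI2, a regulator of thiamine genes (0.13, 0.01, 1.12 and 1.15). These calls held in 9 of 18, 6 of 18 and 6 of 16 settings. In their lists of 26, 16 and 16 genes no other member was called.

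Late falls were few. IMD2, an IMP dehydrogenase of guanine nucleotide synthesis, stood at -1.45, -1.83, -2.87 and -3.50. It fell by 1.55 (SE 0.28, limma adjusted p = 0.0484), a call that held in 7 of 18 settings. YAR075W, a fragment that resembles it and may share its signal, stood at -1.06, -1.67, -2.70 and -4.48. YLR112W went from 1.09 and 0.83 to -0.72 and -1.75 and YNL058C from -0.07 and -0.22 to -1.34 and -1.62 (limma adjusted p = 0.0409 and 0.0273).

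Sulfur assimilation made up 5 of the 25 late falls, though limma called none of its 26 genes and 13 (50%) had an unadjusted p under 0.05, against 27.9% of all genes. The median change was -0.41, and 20 of the 26 had a negative change. SUL1, the sulfate permease, stood at -1.66, -2.60, -3.33 and -4.39, lower on each later array (limma adjusted p = 0.106). MET16, of sulfate reduction, stood at -0.07, -0.46, -1.47 and -2.11 and MET3, the ATP sulfurylase, at -0.84, -1.37, -2.0 and -3.17 (limma adjusted p = 0.0526 and 0.121). AAC3, a mitochondrial ADP/ATP carrier, stood at -0.55, -0.47, -1.61 and -2.51 (limma adjusted p = 0.0662).

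**Figure D5:**
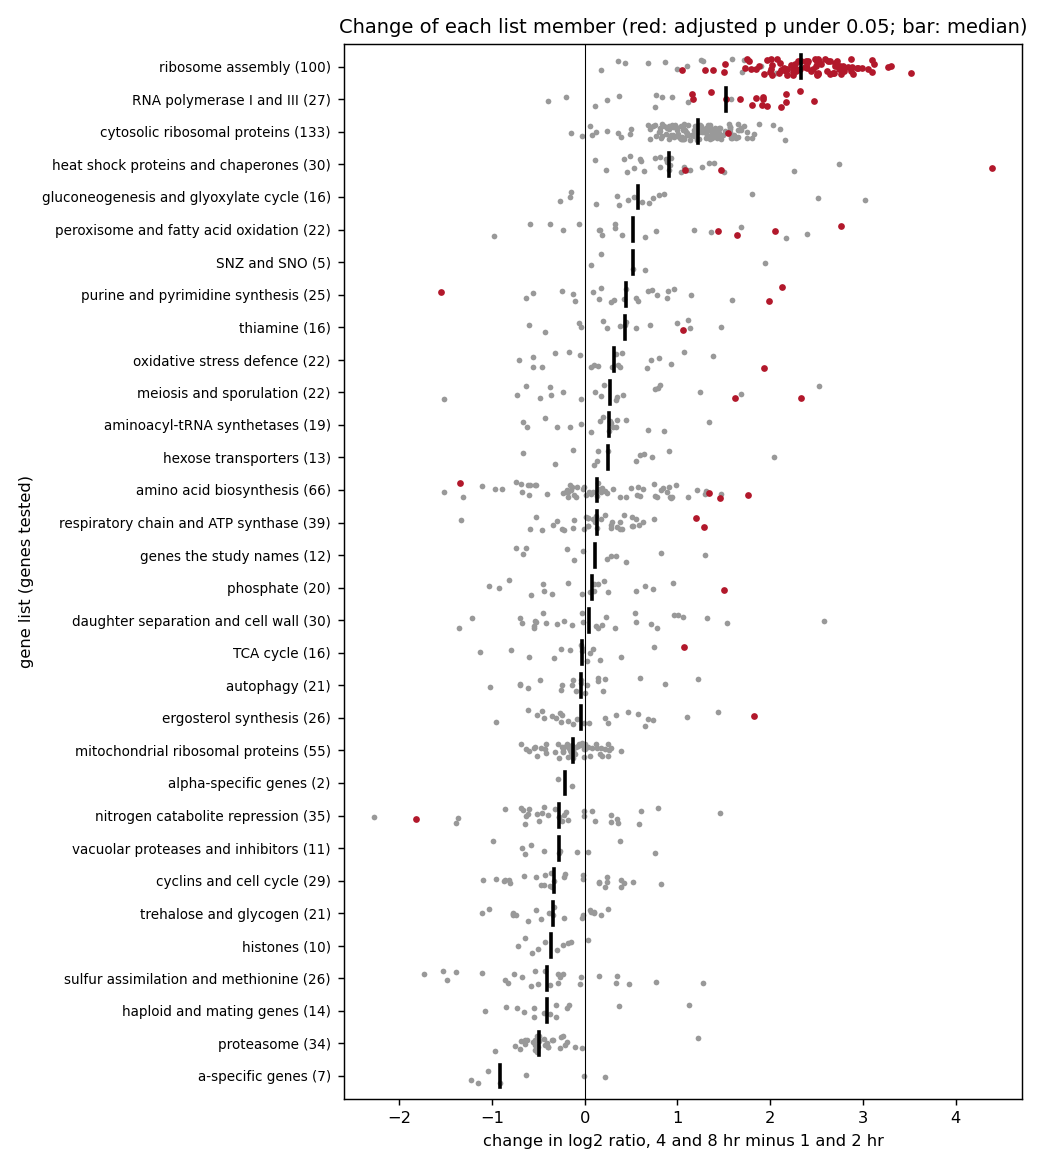
Each point is a gene of a list, placed by its change in log2 ratio from 1-2 hr to 4-8 hr; red points passed an adjusted p under 0.05 in limma and bars are list medians. Ribosome assembly, with 86 of 100 called and a median of 2.33, lies farthest to the right.

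The same hours of carbon starvation, in which filters went to plates without glucose, were set beside these changes. The reference was of the same kind, and the carbon array at 60 min stood apart as given above, so the carbon values from 120 min on are given. The transient falls had carbon medians of -3.52, -3.14 and -2.27 at 120, 240 and 480 min, the assembly factors -3.97, -3.89 and -2.81 and the ribosomal proteins -4.34, -3.98 and -2.27. The late rises were already at a median of 2.80 at 120 min in carbon starvation and stayed at 3.43 and 3.43. Peroxisome genes had carbon medians of 5.57, 6.55 and 6.03, against 0.82, 1.37 and 1.85 in nitrogen starvation, and POX1 stood at 6.11, 8.05 and 7.60. The transient rises stood at 0.76, 0.17 and 0.14, and CAR2 at 1.94, 2.19 and 3.77.

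The change from early to late did not differ between the starvations past the threshold for any of 5415 genes (smallest limma adjusted p = 0.79), and 236 (4.36%) had an unadjusted p under 0.05. This test took in the carbon array at 60 min. Without it no gene was called and 530 had an unadjusted p under 0.05. Without the carbon array at 120 min 2399 genes were called, 98 of the 100 assembly factors among them, so that the answer rests on which of these arrays stands for early carbon starvation. In simulated data with independent noise of the fitted spread, the test found 25.4% of differences of 3 on the log2 scale and 72.7% of those of 4. No simulated array stood apart as the carbon array at 60 min did, so these shares need not hold in the data.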

How the data were processed

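Poly(A)+ RNA of filter cultures was measured by the authors on 2-colour Agilent yeast arrays, with starved cells in Cy5 and the culture before the switch in Cy3 and no dye swap. The deposited scanner files of Feature Extraction A.7.5.1 give intensities per spot. Per the file headers, processed intensities have a spatial background trend removed and the dyes balanced by LOWESS, and the deposited log10 ratio is made from them. The deposited series table of log2 ratios equals the scanner ratios within 5e-04 and is limited to 6.644. The build is not given in the sources used here.

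For this comparison the log2 ratio of the processed signals was centred on each array's median. Control spots, outlier spots and spots dim in both channels, that is, not well above background (2.6 times the background SD) were left out, saturated spots were kept, and spots of a probe were averaged (4007 of 6256 probes have 2 spots). Of 6256 genes 576 lacked a value on 1 or more of the 4 arrays, and 5756 matched a locus tag of the R64 table. Tests used limma 3.58.1 (lmFit and eBayes) in R 4.3.3, two-sided, with no covariate, on 2 residual and 2.95 prior degrees of freedom. Each of the 4 arrays lies on its own slide, so slide and array cannot be told apart, and all were scanned on 1 date. Their number limits the precision. The p-values measure the spread between these arrays, which takes in the hours between them. Of called genes, 3 were dim in red on both arrays of a pair and none was saturated. In simulated data for this test on 5680 genes, 98.5% of changes of 2 were found, and 5.24% of calls were false. That simulation drew independent noise for each array and moved both late arrays by the same amount. It left out any trend between the hours of a pair, so these shares need not hold in the data.

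The members, the lists and the tests were chosen with earlier results of these data known. Genes named are the 6 largest changes of each set among those called with red above background and unsaturated on all 4 arrays, filled with those at an unadjusted p under 0.05, up to 4 of each list with red above background on all 4 arrays, and those that the study names. Apart from the marker genes and those at the limits of the sets, the others were chosen after their values were seen. This is not said at each place, as for TKL2, UGA4, FAA2, CAT2, YDJ1 and the CUP1 copies. Alternatives covered scaling, background correction, the series table, the red channel alone, filters, arrays in the fit, the variance prior, a slope over time, thresholds and each array left out. The variants that use the trended or the robust prior alone, equal totals with both, and the green channel were added after the data were seen. A planned count of promoter motifs was not run, since no sequences were used. Plots were made in matplotlib 3.10.9 (Python 3.11.15).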

Additional observations from a re-analysis of the deposited data

How the results depend on the processing

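Over 18 other settings all 330 called genes kept their direction wherever they had a value. The list medians of ribosome assembly, polymerases, ribosomal proteins, nitrogen catabolite repression, peroxisome, gluconeogenesis, heat shock, sulfur, proteasome and a-specific genes kept theirs too. The counts of calls did not hold, and the cause was not tested. Equal totals gave 755 calls with 354 lower, and with a trended and robust prior 755 with 380 lower. The red channel alone gave 546 with 166 lower, no further scaling 40 lower, and no filter on dim spots 13 lower. An adjusted p under 0.1 gave 723, with 563 higher and 160 lower. Loess, all 12 arrays, a trended and robust prior, a trended prior and the slope over time gave 0 calls, 0 higher and 0 lower, and 0 of the 100 assembly factors (smallest adjusted p of 0.0729, 0.464, 0.0564, 0.0557 and 0.0555 in limma). Leaving out 1 of the 4 arrays, calls ranged from 122 to 1814, those higher from 122 to 1089, those lower from 0 to 725, and the assembly factors called from 58 to 95.

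With equal totals the transient rises numbered 241, the late rises 81 and the late falls 54. Genes above background in both channels gave 88 late rises, and loess 13 transient rises and 4 late falls. A limit of 0.6 gave 333 transient rises, 321 late rises and 155 late falls, and a limit of 2 gave 2, 33 and 1, with 147 transient falls. Leaving out 1 array gave 43 to 119 transient rises, 339 to 586 transient falls, 92 to 255 late rises and 13 to 119 late falls. The nitrogen minus carbon test ranged from 0 to 2399 calls, the latter without the carbon array at 120 min.

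Equal totals under either prior turned the list medians of amino acid biosynthesis (-0.18), respiratory chain (-0.18), phosphate (-0.24), oxidative stress (-0.0052) and meiosis (-0.0452) below 0, red alone turned amino acid biosynthesis (-0.0532), respiratory chain (-0.0823) and phosphate (-0.22), and loess raised TCA cycle (0.11) and ergosterol synthesis (0.0546) above 0. The lists of autophagy, aminoacyl-tRNA synthetases, hexose transporters, daughter separation, alpha-specific genes and genes the study names, with no called member, changed sign under 1 to 8 settings. Without 1 array, the median of amino acid biosynthesis ranged from -0.0026 to 0.229, phosphate from -0.0373 to 0.1325, meiosis from -0.0077 to 0.5382, TCA cycle from -0.2676 to 0.1231, and ergosterol synthesis from -0.1167 to 0.0552.

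No paired analysis was possible because the labels give no replicate numbers that the early and late arrays share. The 8 hr array had 90.7% of spots above background in red and the 4 hr array 93.4%, so weak transcripts were read about as often on both, and 6 transient falls were dim in red on both early arrays.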

Other observations

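In all, 5 genes of biotin supply, picked after their values were seen, were late rises by size. BIO3, an aminotransferase of biotin synthesis, stood at 1.62, 2.69, 3.59 and 4.15 at 1, 2, 4 and 8 hr and BIO4 at 0.35, 1.35, 2.24 and 2.81, higher on each later array. BIO5 stood at 1.24, 2.25, 2.96 and 3.41, BIO2, the biotin synthase, at 0.26, 0.93, 1.84 and 1.95, and VHT1, the biotin transporter, at 0.37, 1.10, 1.92 and 2.60. Their changes of 1.30 to 1.72 did not pass the threshold (limma adjusted p of 0.0633 to 0.103). Each of the 5 was already higher at 2 hr than at 1 hr. In carbon starvation at 120 to 480 min BIO3 stood between -0.32 and 0.11, BIO4 between -1.20 and -0.12 and VHT1 between -1.75 and -1.05, while BIO5 reached 1.51.

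The 8 probes for the telomeric Y' helicases YRF1-1 to YRF1-8, also picked after their values were seen, were late rises by size with nearly equal values. YRF1-3 stood at 0.19, 0.13, 0.62 and 1.97, and the changes of the 8 ran from 1.01 to 1.16, none past the threshold. The genes are near-identical copies, so the 8 values are not independent. The metallothionein copies CUP1-1 and CUP1-2 likewise gave 2.08, 2.31, 2.39 and 4.38 for the first and the same to within 0.02 for the second (a change of 1.19, limma adjusted p = 0.28).

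Proteasome genes had a negative change in 33 of 34, with a median of -0.49 from 0.68 at 1-2 hr to 0.14 at 4-8 hr, and limma called none (12, or 35.3%, at an unadjusted p under 0.05, against 27.9% of all genes). RPN4, which activates them, was the exception at 2.05, 2.16, 2.88 and 3.77 (limma adjusted p = 0.103). Of 7 a-specific genes 6 had a negative change (median -0.91, none called, 3, or 42.9%, at an unadjusted p under 0.05), among them the receptor gene STE2 at -0.75, -0.72, -0.97 and -2.59 and the pheromone gene MFA2 at 0.77, 1.03, 0.35 and -0.99. For both, the 8 hr array was the low one, and without it the median of the 7 was -0.39 (-1.37 without the 4 hr array). Haploid and mating genes had a median of -0.41 over 14 genes, with none called and 1 unadjusted.

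Cell wall genes went both ways, with 15 of 30 above 0, none called and 15 (50%) at an unadjusted p under 0.05, against 27.9% of all genes. PIR3 stood at 0.95, 0.99, 2.64 and 4.47 and its relative PIR1 at 0.90, 0.41, -0.33 and -1.07. Among lists with no call the medians were -0.34 for trehalose and glycogen (21 genes), -0.36 for histones (10), -0.33 for cyclins (29), 0.27 for aminoacyl-tRNA synthetases (19), 0.25 for hexose transporters (13), 0.52 for SNZ and SNO (5), 0.11 for the genes the study names (12) and -0.21 for the 2 alpha-specific genes measured. With equal totals those of the synthetases, the transporters and the study's genes fell below 0. The 20 phosphate genes had a median of 0.08 and the 39 respiratory chain genes 0.13, with CYC1 (-2.23, -2.22, -1.22 and -0.81) and NDE1 called. The call of CYC1 held in 5 of 18 settings and that of NDE1 in 8, and neither held with equal totals.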
